A study of Mus musculus with 57 samples.

Results

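Whole livers of mice fed CDAHFD, a choline-deficient diet rich in fat, were divided by how much Clec4f messenger RNA they held. Clec4f encodes a lectin that, in the mouse, is made almost only by Kupffer cells, the macrophages that reside in the liver. The rule took every whole liver with Col1a1 (the main fibrillar collagen chain) at 100 CPM (reads scaled to library total) or more, and called a liver Clec4f-low where Clec4f was under 10 CPM. It found 5 Clec4f-low livers and 13 others, 18 of the 22 whole livers and of the 57 libraries of the series. Because the values of Clec4f and Col1a1 chose the livers, differences between the 2 groups are described here without a test.

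The study put mice on diets that cause non-alcoholic steatohepatitis (NASH) and sequenced polyadenylated RNA of sorted liver macrophages, blood monocytes and whole liver. All 22 whole livers came from mice labelled Clec4f-cre, on CDAHFD for 4 weeks by their titles, and labelled positive or negative for DTR, the diphtheria toxin receptor. The labels give no age, sex, number of Cre copies or toxin treatment for them, and they do not say that replicates are separate animals, so the p-values below take in only the variation among libraries, which may be technical. The Clec4f-low livers were 4 DTR-negative livers (replicates 6, 7, 8 and 9) and 1 DTR-positive liver (replicate 3), and the others were 8 DTR-positive and 5 DTR-negative livers. In other words 1 of 9 DTR-positive and 4 of 9 DTR-negative livers were Clec4f-low. The sorted cells set beside them came from C57BL/6J mice, with 2 libraries a group. On the NASH diet they were Tim4-positive Kupffer cells (NASH Kupffer cells), Tim4-negative macrophages of the Kupffer niche (niche recruited macrophages below), recruited macrophages low or high in Ly6C, and Ly6C-high blood monocytes, and on control diet they were Kupffer cells.

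Kupffer cells are seeded before birth, line the sinusoids and clear bacteria, particles, old red cells and modified lipoproteins from portal blood. In steatohepatitis some of them die and monocytes from the blood take over part of the niche, acquiring Clec4f and Vsig4 early and Timd4 late. Clec4f binds glycans and glycolipids, Timd4 (the Tim4 protein) binds phosphatidylserine on dying cells, and Vsig4 is a complement receptor that captures bacteria. The question here was which other genes stood apart in the livers with little Clec4f.

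The stretches just before the starts of these marker genes are given because the markers parted from each other in these livers. They are the 250 bases before the RefSeq start (GRCm38.p6), 5′ to 3′ on the gene's strand, with capitals on AGGTCA (a nuclear receptor half-site) and GAGGAA (the PU box core), searched on both strands.
Clec4f, chr6:83656117-83656366, minus strand: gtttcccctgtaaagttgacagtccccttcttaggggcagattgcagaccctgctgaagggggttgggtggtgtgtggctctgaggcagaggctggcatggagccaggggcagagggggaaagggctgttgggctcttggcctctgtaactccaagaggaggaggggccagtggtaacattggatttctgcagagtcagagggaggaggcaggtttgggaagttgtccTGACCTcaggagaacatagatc
Timd4, chr11:46810549-46810798, plus strand: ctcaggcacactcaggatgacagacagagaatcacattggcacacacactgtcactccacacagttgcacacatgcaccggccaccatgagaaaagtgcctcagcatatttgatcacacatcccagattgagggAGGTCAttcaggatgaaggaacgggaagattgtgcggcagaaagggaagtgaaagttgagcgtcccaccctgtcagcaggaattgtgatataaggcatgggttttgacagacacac
Vsig4, chrX:96293439-96293688, minus strand: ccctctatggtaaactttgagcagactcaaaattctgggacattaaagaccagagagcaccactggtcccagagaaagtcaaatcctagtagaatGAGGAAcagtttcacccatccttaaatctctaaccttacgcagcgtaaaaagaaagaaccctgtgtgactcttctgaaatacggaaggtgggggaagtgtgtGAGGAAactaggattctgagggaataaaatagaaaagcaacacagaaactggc
Clec4f and Timd4 each held 1 AGGTCA and no GAGGAA, while Vsig4 held 2 GAGGAA and no AGGTCA. Of 32851 such windows, 14% held AGGTCA and 23.3% held GAGGAA, and these matches are descriptions of the letters only.

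Clec4f itself split the livers with a wide gap. Scaled to library size with the TMM method, which is the unit of every level below unless another is named, it stood at 1.42, 2.91, 3.44 and 6.32 CPM in the DTR-negative Clec4f-low livers and at 3.51 CPM in the DTR-positive one, against 28.1 to 103 CPM (median 46.0) in the 13 others. On the plain scale of the rule the value just inside the threshold was 5.89 CPM, from 45 reads, and the value just outside was 29.2 CPM, from 237 reads. The lowest liver had 14 reads, which is 1.41 CPM with an exact 95% binomial interval of 0.77 to 2.36 CPM for counting error. The means were 3.52 ± 1.78 CPM in the Clec4f-low livers (SD, n = 5) and 55.7 ± 27.5 CPM in the others (SD, n = 13), a log2 difference of -3.76, and -4.10 among DTR-negative livers alone. In length-scaled units the authors' TPM averaged 1.74 in the Clec4f-low livers and 28.55 in the others. Total counts were 5775768 to 9941477 in the Clec4f-low livers and 6063136 to 8127680 in the others. In bulk tissue, fewer cells of a type and less RNA per cell cannot be told apart. All 18 livers carry the Clec4f-cre label with no copy number given, and an effect of that allele on Clec4f RNA itself was not tested.

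The other 2 marker genes did not divide with Clec4f. Vsig4 stood at 25.5, 31.2, 46.5 and 48.9 CPM in the DTR-negative Clec4f-low livers (replicates 9, 7, 8 and 6) and 40.5 CPM in the DTR-positive one, against 26.8 to 91.7 CPM (median 45.2) in the others. Its lowest value was that of a Clec4f-low liver, and the groups otherwise overlapped, with 2 of 5 above the median of the others, and the log2 difference was -0.26. Timd4 stood at 0.406, 1.17, 1.03 and 4.77 CPM in the same DTR-negative livers and 0.651 CPM in the DTR-positive one, against 0.119 to 13.5 CPM (median 1.56) in the others. The 13 others spanned a wider range of Timd4 than the Clec4f-low livers on both sides, and the log2 difference was -0.15. That difference was -1.16 among DTR-negative livers alone and -0.56 without DTR-negative replicate 6. The lowest of the others, DTR-positive replicates 12, 8 and 11, stood at 0.119, 0.157 and 0.158 CPM. At such levels Timd4 rests on few reads, and its counting error was not computed. Replicate 6, one of the Clec4f-low livers, held more Timd4 than 10 of the 13 others.

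Of the 12175 genes with a mean of at least 2 CPM, 4 had all 5 Clec4f-low livers below all 13 others, 0.0329% of the genes, and 4 had them all above, also 0.0329%. Below stood Clec4f, Akap13 (an anchor protein for kinases, log2 -0.29), Sgk3 (a kinase of the serum and glucocorticoid family, -0.27) and Taf1 (a subunit of the general transcription factor TFIID, -0.23). Above stood Nthl1 (a DNA glycosylase, 0.57), Aqp11 (an intracellular aquaporin, 0.38), Atox1 (a copper chaperone, 0.23) and Trappc11 (a vesicle tethering subunit, 0.13). Clec4f was chosen by the rule, and no other gene without overlap differed by as much as 1 on the log2 scale. Over all genes the median difference was -0.0069, and 5 genes were lower and 4 higher by more than 1.

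Among these, Aqp11 stood at 27.3 to 32.6 CPM in the Clec4f-low livers, against 16.98 to 26.9 CPM in the others. Nthl1 stood at 2.86 to 3.93 CPM in the Clec4f-low livers, against 1.32 to 2.53 CPM in the others. Akap13 stood at 106 to 121 CPM in the Clec4f-low livers, against 126 to 184 CPM in the others. These gaps were narrow beside the one in Clec4f, and for Sgk3 and Taf1 the highest Clec4f-low liver came within 0.1 CPM of the lowest of the others. The second lowest difference of all genes, -1.56, was that of Mup7, a major urinary protein gene with near-identical copies, so that its reads cannot be placed with certainty. It stood at 49.3 CPM in DTR-negative replicate 6 and 0.781 to 4.64 CPM in the other Clec4f-low livers, against 2.17 to 262 CPM in the others.

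**Figure D1:**
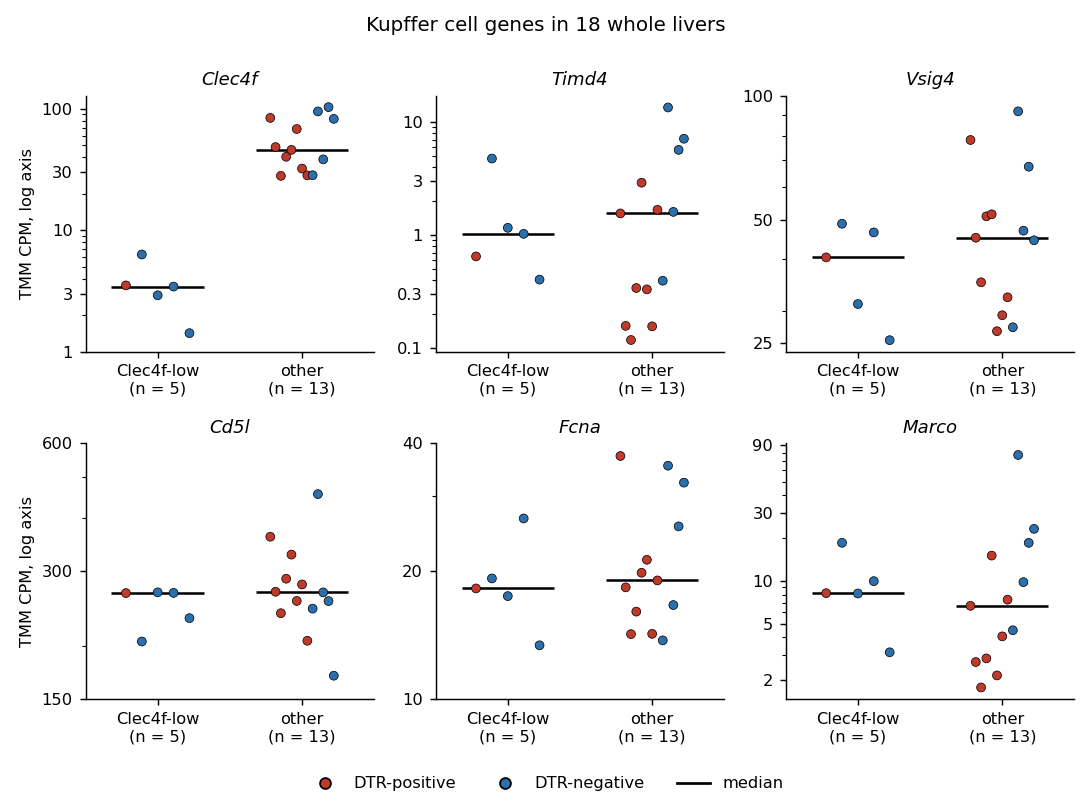
Levels of 6 Kupffer cell genes (TMM CPM, log axes) in the 5 Clec4f-low livers and the 13 others, 1 point per liver, coloured by DTR label, with a line at each median. Clec4f leaves a gap between 6.32 and 28.1 CPM, and the 2 groups overlap for the other 5 genes.

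Kupffer identity genes were then read one by one. Of the 24 genes of that list, 21 passed the filter, and 16 had a lower and 5 a higher mean in the Clec4f-low livers, with a median log2 difference of -0.11. Differences here and below are between means of log2(CPM + 0.5). Clec4f alone was without overlap among the 21. Cd5l, a secreted scavenger protein that Kupffer cells make at very high levels, stood at 233, 268, 267 and 205 CPM in the DTR-negative Clec4f-low livers and 267 CPM in the DTR-positive one, against 170 to 456 CPM (median 268) in the others. Of these, 3 stood at the median of the others, while DTR-negative replicate 6 stood below 12 of the 13, and the log2 difference was -0.14. Fcna, the ficolin that starts the lectin pathway of complement, stood at 13.4, 17.5, 26.6 and 19.2 CPM in the DTR-negative Clec4f-low livers and 18.2 CPM in the DTR-positive one, against 13.7 to 37.3 CPM (median 19.0) in the others. Its log2 difference was -0.15, with 2 of the 5 above the median of the others.

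Scavenger and receptor genes of the list varied more. Marco, a scavenger receptor for bacteria and particles, stood at 3.14, 8.16, 9.96 and 18.5 CPM in the DTR-negative Clec4f-low livers and 8.20 CPM in the DTR-positive one, against 1.78 to 76.9 CPM (median 6.67) in the others. Here 4 of the 5 lay above the median of the others (log2 0.17), although the arithmetic mean was lower in the Clec4f-low livers (9.60 against 13.5 CPM) and the log2 difference was -0.11 without DTR-negative replicate 6. Cd163, the haemoglobin-haptoglobin receptor, stood at 2.43, 3.93, 7.90 and 18.7 CPM in the DTR-negative Clec4f-low livers and 4.42 CPM in the DTR-positive one, against 0.474 to 21.6 CPM (median 4.14) in the others. Its log2 difference was 0.65, the highest of the list, and the groups overlapped almost fully. Folr2, a folate receptor, had a log2 difference of -0.41, and Kcna2, a potassium channel gene, one of -0.51. Within DTR-negative livers alone (4 against 5) the differences were -1.16 for Timd4, -1.002 for Marco, -0.46 for Cd163, -0.70 for Folr2, -0.89 for Kcna2 and -0.48 for Vsig4, so that Marco and Cd163 had the opposite sign there.

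The remaining members of the list had small differences, all with overlap. Slc40a1, the iron exporter ferroportin, had a log2 difference of -0.02, Hmox1, haem oxygenase, -0.06, Clec1b, a lectin receptor for podoplanin, -0.06, and C6, a terminal complement component also made by hepatocytes, -0.17. Cdh5, the endothelial cadherin that Kupffer cells also transcribe, had -0.24, Il18bp, the decoy receptor for interleukin 18, -0.16, Ptgs1, cyclooxygenase 1, -0.07, and Cd207, langerin, -0.07. The transcription factor genes Spic, Nr1h3 (the sterol receptor LXR alpha), Id3 and Id1 had -0.11, 0.04, 0.07 and 0.10. Pcolce2, Cxcl13 and Xlr4a were under the filter in liver.

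To read Kupffer cell RNA in whole liver beyond a short list, genes were taken from the sorted libraries. NASH Kupffer cells had 3156 of 14407 genes (21.9%) called higher than in the Ly6C-low recruited cells at an adjusted p under 0.05 (edgeR quasi-likelihood test, Benjamini-Hochberg, n = 2 each). Of the Kupffer identity genes past the liver filter, 20 of 21 were among them. Clec4f stood at 5593 ± 1401 CPM in NASH Kupffer cells and 41.6 ± 5.12 CPM in Ly6C-low recruited macrophages (SD, n = 2 each, log2 7.07 ± 0.31 SE, adjusted p = 9.55e-08 by edgeR). A gene was called Kupffer-derived where that difference was at least 2 on the log2 scale and its level in NASH Kupffer cells was at least 10 times its mean in the 18 livers. This definition was made after the values had been seen. The name stands for this rule only. A level 10 times higher does not show that Kupffer cells supplied most of a gene's RNA in liver.

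It gave 74 genes past the liver filter, Clec4f included, and 59 of the other 73 (80.8%) had a lower mean in the Clec4f-low livers, where 52.1% of all genes did. The shifts were small, with a median log2 difference of -0.12 and a range of -0.66 to 0.35. None of the 73 was without overlap, and none differed by as much as 1 on the log2 scale. Within DTR-negative livers 46 of the 73 were lower, with a median of -0.05, and without DTR-negative replicate 6 it was 51 of 73 and -0.11. The lowest were Adrb1, a beta adrenergic receptor, at -0.66, Fpr1, a receptor for bacterial formyl peptides, at -0.53, and Kcna2, and the highest were Aatk, a kinase gene, at 0.35 and Il18, an inflammasome cytokine, at 0.24. The filter of 2 CPM took the mean over all 18 livers, so a gene could pass it through the 13 others. Timd4 did so, with means of 1.61 CPM in the Clec4f-low livers and 2.74 CPM in the others. Without replicate 6, Adrb1 averaged 1.69 against 2.67 CPM and Kcna2 1.52 against 3.00 CPM. This filter favours genes with a lower mean in the Clec4f-low livers, and how many of the 59 passed that way was not counted. Fpr1 stood at 3.55, 4.22, 3.44 and 4.63 CPM in the DTR-negative Clec4f-low livers and 3.64 CPM in the DTR-positive one, against 3.11 to 13.4 CPM (median 5.66) in the others. Going by the 73 genes, the description of the 5 livers as having lost Kupffer markers went beyond Clec4f only by these small shifts. How far other liver cells supplied the RNA of those genes was not tested, so a larger change within Kupffer cells could be missed. The 5 livers are called here by their Clec4f level.

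**Figure D2:**
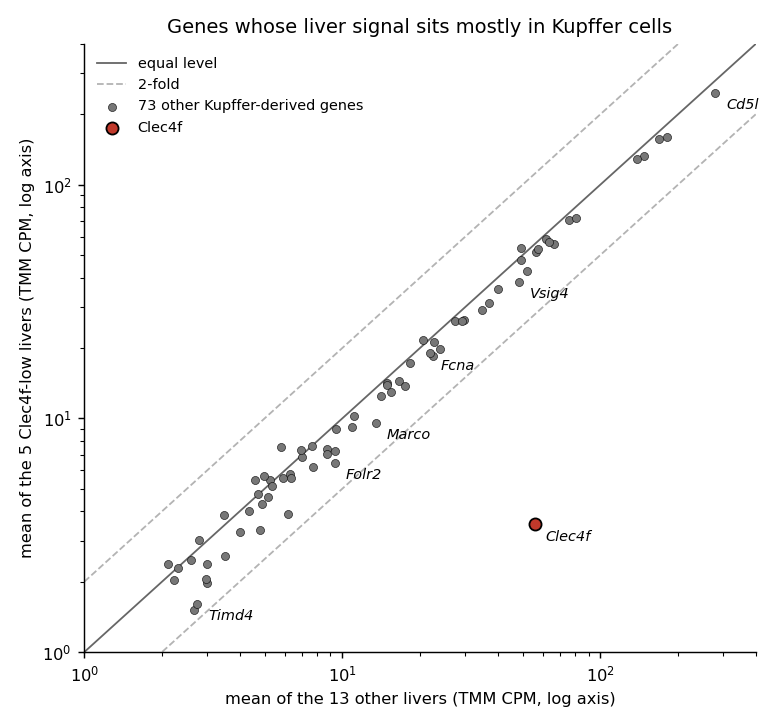
Mean levels (TMM CPM, log axes) of 74 Kupffer-derived genes in the 5 Clec4f-low livers (vertical) and the 13 others (horizontal), with lines at equality and at 2-fold. The 73 genes other than Clec4f lie inside the 2-fold lines on the plot of means, and Clec4f lies at 3.52 and 55.7 CPM. The part of their liver RNA that Kupffer cells supplied was not measured.

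Set against Vsig4 within the same library, Clec4f was out of proportion in the Clec4f-low livers. They held 5.58 to 12.9 Clec4f counts per 100 Vsig4 counts, against 79.2 to 255 (median 104) in the other livers. The numerator had chosen the livers, so this ratio is a description. Sorted cells held 343 and 420 in NASH Kupffer cells, 340 and 467 in niche recruited macrophages, 191 and 242 in Ly6C-low and 250 and 274 in Ly6C-high recruited cells, and 390 and 500 in Kupffer cells on control diet. The lowest ratio among all sorted macrophage libraries of the series was 158, in a niche recruited library titled CreNeg LXRaLXRb flox. The median of the other livers, 104, also lay below every sorted macrophage library, and the reason was not tested. Blood monocytes had under 1 CPM of Vsig4 and give no ratio. Against Cd5l the picture was alike, with 0.610 to 3.08 Clec4f counts per 100 Cd5l counts in the Clec4f-low livers. The other livers held 11.5 to 48.6 (median 14.4), and NASH Kupffer cells 30.8 and 43.1.

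**Figure D3:**
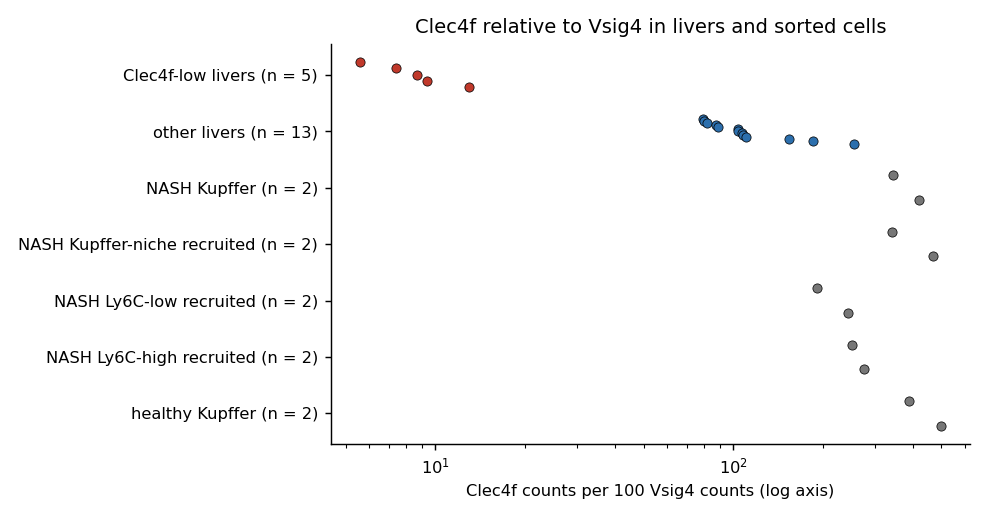
Clec4f counts per 100 Vsig4 counts (log axis), 1 point per library, in Clec4f-low livers, other livers and sorted cells. The 5 Clec4f-low livers sit at 12.9 or under, and every other library shown sits at 79.2 or over.

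Resident cells and the cells that replace them in the niche were compared gene by gene in the sorted libraries. Of the 21 Kupffer identity genes past the liver filter, 3 were called higher in NASH Kupffer cells than in niche recruited macrophages, where 0.201% of all genes were (29 of 14407, edgeR, n = 2 each). They were Timd4 (log2 4.55 ± 0.51 SE, adjusted p = 0.00665), whose protein was used to sort those cells, C6 (1.64, adjusted p = 0.0212) and Cdh5 (0.73, adjusted p = 0.0187). Clec4f differed by 0.90 with an adjusted p of 0.174 and Vsig4 by 0.96 with 0.147 in the same edgeR test. NASH Kupffer cells held 213 ± 70.2 CPM of Timd4 and niche recruited macrophages 9.03 ± 5.01 CPM, while Clec4f stood at 5593 ± 1401 CPM in NASH Kupffer cells and 2992 ± 456 CPM in niche recruited macrophages (SD, n = 2 each).

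The DTR label gave a grouping of the 18 livers that does not rest on Clec4f. No gene of 12702 (0%) was called between 9 DTR-positive and 9 DTR-negative livers by edgeR at an adjusted p under 0.05, with 1549 at an unadjusted p under 0.05 and no call by DESeq2 either. Clec4f differed by log2 0.07 (adjusted p = 0.973, edgeR) and by -0.49 once the Clec4f-low livers were left out. Cd163 and Marco, at log2 -1.74 and -1.75 in DTR-positive livers, had an adjusted p of 0.388 each in that fit. Timd4 did not pass its count filter, and without the filter it differed by -2.14 (adjusted p = 0.465, edgeR). None of these genes was shown to differ with the label.

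Among the 13 other livers Clec4f varied between 28.1 and 103 CPM, and its relation to each gene was read there. No gene of 12174 (0%) was called at an adjusted p under 0.05 in permutation tests of Pearson's r (100000 resamples, Benjamini-Hochberg, smallest adjusted p 0.142) or of Spearman's rho (smallest adjusted p 0.343). At an unadjusted p under 0.05 there were 1838 genes by Pearson's r, 923 of them positive, and 1365 by Spearman's rho. With 100000 resamples and this many genes, a single gene could at best reach an adjusted p of 0.122. The number of resamples set that floor, so the test could not have called 1 gene alone. Fcna had r = 0.889 and rho = 0.852 (permutation p = 8e-05 and 0.00047, adjusted 0.142 and 0.343), and r = 0.892 without the 2 livers farthest from the median of Clec4f. Vsig4 had r = 0.70 and rho = 0.626 (permutation p = 0.00929 and 0.025, adjusted 0.211 and 0.40), and Timd4 r = 0.690 and rho = 0.571 (permutation p = 0.00988 and 0.0444, adjusted 0.212 and 0.433). Without the 2 farthest livers, both DTR-negative, r was 0.525 for Vsig4 and 0.483 for Timd4, and within the 8 DTR-positive livers it was 0.508 for Vsig4, 0.228 for Timd4 and 0.833 for Fcna. The 5 DTR-negative livers among the 13 are too few for a value of their own. Of the Kupffer identity genes, 8 of 20 other than Clec4f had an unadjusted permutation p under 0.05 and all 8 were positive, where 1838 of 12174 genes had such a p and 923 of those were positive.

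Some Clec4f-low livers held more Fcna than livers with far more Clec4f. Fcna reached 26.6 CPM in DTR-negative replicate 8, which had 3.44 CPM of Clec4f, against 14.2 CPM of Fcna in the DTR-positive liver with 28.1 CPM of Clec4f. The 8 genes with the highest r were Khdrbs3 (an RNA-binding protein, 0.906), Cyp2d40 (a cytochrome P450 with close paralogs, 0.895), Fcna, Isoc1 (0.879), Bco2 (a carotenoid-cleaving oxygenase, 0.878), Tmprss6 (the protease that restrains hepcidin, 0.874), Smyd1 (a lysine methyltransferase, 0.858) and Gpd1 (glycerol phosphate dehydrogenase, 0.855), each with an adjusted permutation p of 0.142. Their rho was 0.791 to 0.874, with an adjusted p of 0.343 each, and r without the 2 farthest livers was 0.794 to 0.912. Khdrbs3, Isoc1 and Gpd1 had a higher, not a lower, mean in the Clec4f-low livers (log2 0.16, 0.09 and 0.22). Bco2 and Tmprss6 also had a higher mean there, by 0.11 and 0.08 without DTR-negative replicate 6. Cyp2d40, Fcna and Smyd1 had a lower mean, by -0.31, -0.16 and -0.37 without that liver. Lox, the collagen cross-linking oxidase, had the most negative r at -0.879 (rho -0.775, adjusted permutation p = 0.142 and 0.343).

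**Figure D4:**
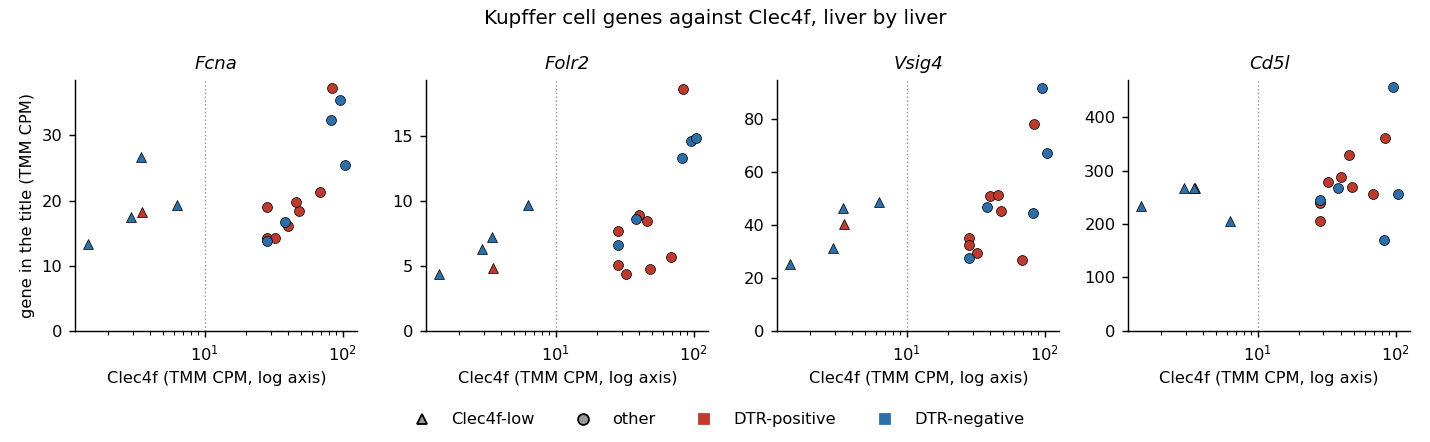
Fcna, Folr2, Vsig4 and Cd5l (TMM CPM) against Clec4f (TMM CPM, log axis) in each of 18 livers, coloured by DTR label, with triangles for Clec4f-low livers, circles for the others and a dotted line at 10 CPM. Among the circles Fcna is higher where Clec4f is higher (r = 0.889, adjusted permutation p = 0.142), and the triangles, at 13.4 to 26.6 CPM of Fcna, sit at the heights of circles.

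Genes of macrophages in general were read next. All 20 pan-macrophage genes had a lower mean in the Clec4f-low livers, by a median log2 of -0.14, and 12 of 20 were lower within DTR-negative livers, by -0.03. Without DTR-negative replicate 6, a liver left out after its values had been seen, 10 of 20 were lower, with a median of -0.02. Lyz2, lysozyme, averaged 581 ± 166 CPM in the Clec4f-low livers (SD, n = 5) and 645 ± 142 CPM in the others (SD, n = 13). Without replicate 6, at 295 CPM, the Clec4f-low mean was 653 ± 53.4 CPM (SD, n = 4), above that of the others. Mpeg1, the pore-forming perforin 2, averaged 412 ± 72.1 CPM in the Clec4f-low livers and 460 ± 78.1 CPM in the others. The lipid-associated macrophage genes had 14 of 18 lower by a median of -0.05 (0.12 within DTR-negative livers). Without replicate 6 they turned, with 16 of 18 higher and a median of 0.14. In sorted cells, 10 of these 18 were called higher in NASH Kupffer cells than in Ly6C-low recruited macrophages, where 21.9% of all genes were. Only 1 of the 18 was called lower, where 2936 of 14407 genes were (edgeR, n = 2 each). Against Kupffer cells the list therefore does not mark Ly6C-low recruited cells here. Ctsl, a lysosomal protease, differed by 0.11. Gpnmb, a lysosomal glycoprotein of that group, stood at 171 to 719 CPM in the Clec4f-low livers, against 197 to 754 CPM in the others. Class II antigen presentation genes were lower in 8 of 8 by -0.18, and by 0.03 the other way within DTR-negative livers. Of 13 genes of Ly6C-high monocytes, 10 had a lower mean, with a median of -0.08 (-0.03 within DTR-negative livers), and 7 without replicate 6. None of these genes was without overlap.

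Matrix genes included Col1a1, which the rule had used. All 20 had a lower mean in the Clec4f-low livers, by a median log2 of -0.22 and by -0.04 within DTR-negative livers. Without replicate 6, 17 of 20 were lower, with a median of -0.11. Col1a1 stood at 263, 271, 240 and 172 CPM in the DTR-negative Clec4f-low livers and 236 CPM in the DTR-positive one, against 161 to 367 CPM (median 294) in the others. Col3a1, a fibrillar collagen, stood at 227 to 328 CPM in the Clec4f-low livers, against 180 to 493 CPM (median 381) in the others, and Bgn, biglycan, had a log2 difference of -0.08. Among the 13 others, 18 of the 20 matrix genes had a negative r to Clec4f at an unadjusted permutation p under 0.05, where 915 of 12174 genes had one, and none was called after adjustment. The Clec4f-low livers lay below the median of the others in Col1a1 and Col3a1, all 5 of them.

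Cholesterol synthesis genes had a higher mean in the Clec4f-low livers in 20 of 20, by a median log2 of 0.50, and by 0.63 within DTR-negative livers and 0.16 for the single DTR-positive Clec4f-low liver. Their summed level was 2006 to 2708 CPM in the Clec4f-low livers, against 1446 to 2156 CPM in the others. Hmgcs1, the enzyme that makes the precursor of mevalonate, stood at 228, 185, 188 and 128 CPM in the DTR-negative Clec4f-low livers (replicates 9, 7, 8 and 6) and 131 CPM in the DTR-positive one, against 80.1 to 146 CPM (median 121) in the others. DTR-negative replicates 9, 7 and 8 stood above all the others in Hmgcs1, and replicate 6 and the DTR-positive liver within them.

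Single genes beyond the naming rule are given here after their values had been seen. Msmo1, a sterol oxidase, stood at 69.9, 69.3, 65.6 and 37.9 CPM in the DTR-negative Clec4f-low livers and 42.2 CPM in the DTR-positive one, against 22.2 to 48.9 CPM (median 29.5) in the others (log2 0.85). Insig1, the sterol-sensing anchor of the pathway, had a log2 difference of 0.79. Cyp7a1, the rate-limiting enzyme of bile acid synthesis, stood at 35.8 to 140 CPM in the Clec4f-low livers, against 16.5 to 100 CPM in the others (0.95). All 5 Clec4f-low livers stood above the median of the others in each of these 3 genes, and none of them was without overlap.

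Circadian clock genes, a list made after the values had been seen, differed in both directions. Dbp, an output factor of the clock, stood at 39.7, 25.6, 13.2 and 8.42 CPM in the DTR-negative Clec4f-low livers and 8.85 CPM in the DTR-positive one, against 3.42 to 12.7 CPM (median 5.37) in the others, the highest log2 difference of all genes (1.44). Nr1d1, the haem-binding repressor of the clock, stood at 181, 137, 130 and 108 CPM in the DTR-negative Clec4f-low livers and 48.5 CPM in the DTR-positive one, against 21.5 to 108 CPM (median 48.5) in the others (1.18). Tef, a relative of Dbp, was higher by 0.85. On the other arm, Npas2 stood at 5.27, 6.70, 9.10 and 11.2 CPM in the DTR-negative Clec4f-low livers and 9.63 CPM in the DTR-positive one, against 9.71 to 19.3 CPM (median 16.0) in the others (-0.82). Arntl, the partner of Npas2 and Clock in activating clock output, was lower by 0.52, at 16.1 to 26.2 CPM in the Clec4f-low livers, against 25.0 to 35.2 CPM in the others. Of 16 clock genes 8 were higher and 8 lower. Within DTR-negative livers the differences were 1.61 for Dbp, 1.13 for Nr1d1 and -1.01 for Npas2, and for the single DTR-positive Clec4f-low liver Dbp differed by 0.64. The labels give no hour of collection.

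**Figure D5:**
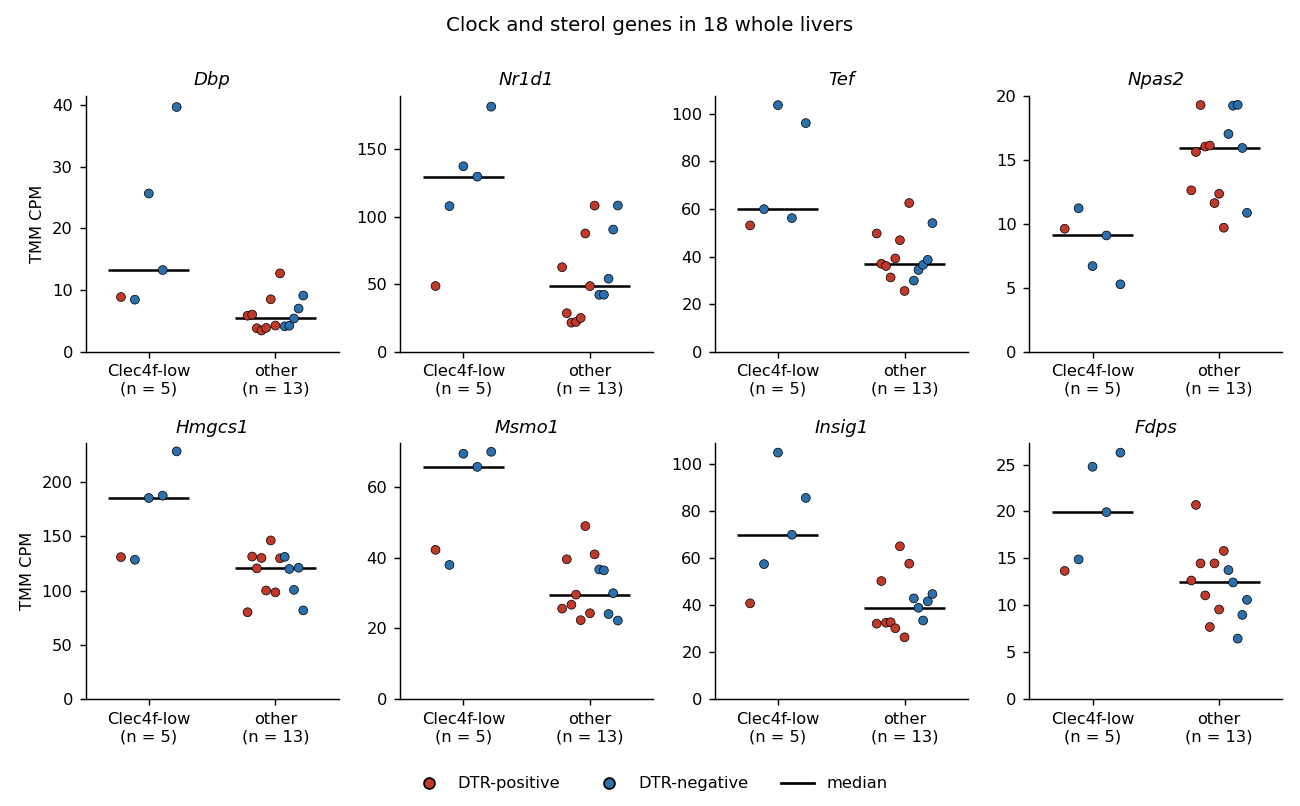
Levels (TMM CPM, axes from 0) of 4 clock genes and 4 sterol genes in the 5 Clec4f-low livers and the 13 others, 1 point per liver, coloured by DTR label, with a line at each median. Dbp reaches 39.7 CPM and Msmo1 69.9 CPM in Clec4f-low livers, against at most 12.7 CPM of Dbp and 48.9 CPM of Msmo1 in the others, and each gene overlaps between the groups.

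Among the 13 others the 2 groups of genes showed no call with Clec4f. Dbp had r = 0.238 and rho = 0.319 (permutation p = 0.434 and 0.288, adjusted 0.728 and 0.706) and Hmgcs1 had r = -0.276 and rho = -0.187 (permutation p = 0.359 and 0.541, adjusted 0.678 and 0.854). The median r over the 20 cholesterol synthesis genes was -0.09. Without the 2 farthest livers r was 0.329 for Dbp and -0.483 for Hmgcs1.

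Markers of other cells were read for the whole lists. Hepatocyte markers summed to 122938 to 146843 CPM in the Clec4f-low livers, against 90859 to 164210 CPM in the others, and 13 of 16 had a higher mean, by a median log2 of 0.12 (0.06 within DTR-negative livers). Alb, albumin, averaged 64239 ± 5894 CPM in the Clec4f-low livers (SD, n = 5) and 58140 ± 12507 CPM in the others (SD, n = 13). Trf, transferrin, differed by 0.02. Among transporters of the bile acid list, Slco1b2 differed by 0.11 and Abcb4 by -0.06. Sinusoidal endothelial markers summed to 306 to 691 CPM in the Clec4f-low livers, against 318 to 737 CPM in the others, with a median of -0.10 and 0.21 within DTR-negative livers. Stellate cell markers summed to 837 to 1268 CPM in the Clec4f-low livers, against 731 to 1316 CPM in the others, with a median of -0.09 and 0.10 within DTR-negative livers. Erythroid and platelet markers had a lower mean in 7 of 7, by -0.70 (6 of 7, by -1.66, within DTR-negative livers), and summed to 63.6 to 139 CPM in the Clec4f-low livers, against 71.2 to 336 CPM in the others. In it Alas2, the haem synthesis enzyme of red cells, differed by -0.16 and Hbb-bs, a beta globin, by -0.70. That list holds Hba-a1 and Hba-a2, haemoglobin genes whose reads cannot be told apart. The part of these markers in the differences above was not tested.

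Bile acid genes as a whole had 10 of 14 with a higher mean (median 0.15) and xenobiotic metabolism genes 15 of 18 (0.19), with none free of overlap. Within DTR-negative livers these were 9 of 14 (0.06) and 10 of 18 (0.05).

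The 4 whole livers under 100 CPM of Col1a1 were left out by the rule. Scaled over all 22 livers, Clec4f stood at 11.6, 90.6 and 140 CPM in the 3 DTR-positive and 117 CPM in the DTR-negative one of them. The liver at 11.6 CPM (9.51 CPM on the plain scale) held 51.2 CPM of Vsig4 and 2.32 CPM of Timd4, and its Vsig4 lay within the range of the 13 others. With all 22 livers split at 10 CPM, Clec4f alone of 12053 genes was without overlap.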

How the data were processed

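Polyadenylated RNA of whole livers and sorted cells was sequenced. The authors deposited a table of raw counts per transcript and a table of TPM (length-scaled transcript levels), both made with HOMER's analyzeRepeats.pl over mm10 exons, per the file headers. STAR, HOMER and DESeq2 are named in the submitters' processing notes, and their versions and the annotation release are not given in the sources used here. The deposited counts carry no normalization, and the authors' TPM is used only where named. One transcript was kept for each gene symbol (40458 transcripts, 24941 genes), and no row was unnamed.

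The livers, the marker lists and the tests were chosen with earlier results of these data known. The Clec4f-low and other livers were compared by the difference of mean log2(CPM + 0.5) after TMM scaling, for genes with a mean of at least 2 CPM over the 18 livers, with no test. A gene was called without overlap where every Clec4f-low liver lay on one side of all others. Tests with a model were edgeR 4.0.16 quasi-likelihood fits (R 4.3.3, limma 3.58.1) on the counts, one over the 18 livers by DTR label and one over 12 sorted libraries of 6 groups that share one spread. DESeq2 1.42.0 was an alternative. Correlations used permutation tests with 100000 resamples (scipy 1.17.1, numpy 2.4.6). The fits were tested on simulated data. Clec4f rested on 14 to 45 reads in the Clec4f-low livers and on 206 to 726 reads in the others. Its exact binomial interval covers counting error only and not the spread between livers. In all 72 pairs of replicates, counts differed by more than sampling noise.

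Named genes were Clec4f, Timd4, Vsig4, Col1a1, the Kupffer identity list, genes without overlap, up to 4 such genes per other list or otherwise the 2 most abundant, and the 8 genes with the highest r. Clock genes, Msmo1, Insig1, Cyp7a1, Adrb1, Fpr1, Aatk, Il18, Lox, Mup7, Trem2 and Col1a2 were named after their values were seen. Some genes that the rule names are not reported here. Leaving out libraries, other thresholds, scalings, filters and the replicate number as a block were tried as alternatives. The deviations of same-numbered DTR-positive and DTR-negative livers correlated at -0.323 to 0.126. These values show no pairing by number and cannot exclude one.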

Additional observations from a re-analysis of the deposited data

Results flagged for a closer look

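Of 64 genes checked for a single outlying liver among the 5 Clec4f-low livers, 6 had one by Dixon's test at a critical value of 0.71, and it was DTR-negative replicate 6 each time. Chance marks about 1 in 20 such groups, and genes of 1 liver are not independent. Timd4 stood at 4.77 CPM in that liver and 0.406 to 1.17 CPM in the other 4 (ratio of gap to range 0.826). Mup7, which has near-identical copies, stood at 49.3 CPM against 0.781 to 4.64 CPM (0.920). The other 4 genes were lower there. Lyz2 stood at 295 CPM against 604 to 725 CPM (0.718), and Trem2, a lipid receptor of macrophages, at 23.4 CPM against 51.1 to 58.0 CPM (0.80). Col3a1 stood at 227 CPM against 301 to 328 CPM (0.739), and Col1a2, the second chain of type I collagen, at 111 CPM against 162 to 168 CPM (0.887). The same liver had the highest Clec4f of the 5, at 6.32 CPM.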

How the results depend on the processing

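The count of genes without overlap, 8 in all, depended on how many livers were set apart. It was 23 at a Clec4f threshold of 5 CPM, 1 with all 22 livers, 317 within DTR-negative livers (an alternative chosen after seeing the data), 2385 within DTR-positive livers with 1 low liver, and 15 to 29 without each Clec4f-low liver in turn. Fewer livers leave more genes without overlap by construction. The cholesterol synthesis median was 0.161 within DTR-positive livers. The Timd4 difference turned to 0.0114 there and to 0.0780 without DTR-negative replicate 9, with a range of -0.557 to 0.0780 when 1 liver was left out. Clec4f by DTR label turned to -0.493 without the Clec4f-low livers, and Vsig4 by label to 0.0122 with all 22 livers and 0.0239 in the livers of the replicate block fitted without it. The cause of these changes was not tested. Genes called between NASH Kupffer cells and niche recruited macrophages, 77 in all, were 259 by DESeq2, 257 with no filter, 152 with the replicate block, and 10 to 33 without each library in turn, where the lone library is assumed to vary like the other groups. Those 2 groups share replicate numbers, and the deviations of same-numbered libraries correlated at 0.590. With 2 libraries a group the 2 pairs give only 1 value. Whether the numbers mark a shared animal or batch was not tested. By DTR label the replicate block gave 0 calls, as did DESeq2. The scalings moved the median of all genes to -0.0665 at most.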
